A study of Mus musculus with 4 samples.

Results

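*Tfcp2l1*, *Klf4* and *Gbx2*, the genes of a CP2-type factor, a Krüppel-like zinc finger factor and a homeobox factor, were examined in mouse ESCs (mESCs) treated with the protein kinase C (PKC) inhibitor Go6983. They were taken by name from the 1577 genes of the authors' deposited RNA-sequencing table, as known targets of LIF/STAT3 signaling in naive mESCs. The choice was made with earlier results of these data known. The treated samples were 2 of 46C mESCs cultured with 5 μM Go6983 for 24 h in medium containing serum, and the controls were 2 samples of no treatment (NT) cells kept in control medium. All 4 came from 46C, 1 mESC line with a green fluorescent protein reporter in the *Sox1* locus. Neither the labels nor the methods say whether LIF was in the medium of these samples or whether NT cells received the solvent of the inhibitor. Nothing says that the replicates came from separate cultures, so the p-values measure the spread between these samples, which may be technical.

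LIF binds a receptor made of Lifr and gp130 on the mESC surface, whose JAK kinases phosphorylate STAT3, and the STAT3 dimer then enters the nucleus and activates its targets. The naive state is that of the preimplantation epiblast. In earlier work cited by the paper, however, the DNA methylation of mESCs in serum with LIF was like that of the postimplantation epiblast. *Tfcp2l1*, *Klf4* and *Gbx2* lie downstream of STAT3, and forced expression of each is known to let mESCs self-renew without LIF. Besides this, Klf4 is one of the factors that reprogram somatic cells to pluripotency, and Gbx2 patterns the midbrain and hindbrain boundary in the embryo.

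In Go6983-treated mESCs *Tfcp2l1* rose 3.25-fold and *Klf4* 2.02-fold, while *Gbx2* fell to 45.8% of its NT level, on the scaling of the libraries as deposited. The deposited values are log2(normalized count + 1), where a normalized count is a number of reads divided by a size factor of its sample. Every gene in the table differed by at least 2-fold between the group means, and its smallest absolute difference was 1.00 on the log2 scale, so the table holds only genes already chosen as changed on these same samples. Of its genes 98.5% passed an adjusted p below 0.05 in limma with Benjamini-Hochberg adjustment, with 68.8% higher and 29.7% lower. That all 3 genes passed is therefore no more than the table as a whole shows, and their direction, size and spread are what the values add.

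The stretches just before the start sites of the 3 genes are shown because they set side by side the proximal promoters of the 2 genes that rose and the 1 that fell. Each is the 250 bases before the RefSeq start in GRCm38.p6, 5′ to 3′ on the strand of the gene, and the capitals mark matches of 5 motifs. These were the TATA box (TATAAA), the GC box of Sp and Klf factors (GGGCGG), the E-box (CACGTG, bound by Myc among others), the STAT palindrome with a spacer of 4, and the Tfcp2l1 motif, a repeated CCNG. *Tfcp2l1* lies at chr1:118627695-118627944 on the plus strand, *Klf4* at chr4:55532476-55532725 on the minus strand and *Gbx2* at chr1:89931177-89931426 on the minus strand.
Tfcp2l1: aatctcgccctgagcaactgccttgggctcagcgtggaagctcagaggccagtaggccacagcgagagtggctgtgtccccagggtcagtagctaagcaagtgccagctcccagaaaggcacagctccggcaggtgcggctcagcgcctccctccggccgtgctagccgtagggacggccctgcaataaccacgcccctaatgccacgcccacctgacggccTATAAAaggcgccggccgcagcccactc
Klf4: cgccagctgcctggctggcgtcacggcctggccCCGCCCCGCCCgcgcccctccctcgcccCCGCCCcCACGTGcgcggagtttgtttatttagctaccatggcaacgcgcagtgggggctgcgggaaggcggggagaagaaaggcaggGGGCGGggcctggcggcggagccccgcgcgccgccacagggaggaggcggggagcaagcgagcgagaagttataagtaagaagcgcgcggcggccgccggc
Gbx2: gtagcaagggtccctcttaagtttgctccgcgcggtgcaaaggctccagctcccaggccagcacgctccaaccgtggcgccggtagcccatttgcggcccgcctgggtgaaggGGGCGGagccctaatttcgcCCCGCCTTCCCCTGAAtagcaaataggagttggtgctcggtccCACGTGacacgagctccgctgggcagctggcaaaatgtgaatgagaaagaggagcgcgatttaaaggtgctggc

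Of 10 motifs searched on both strands, none matched in all 3 promoters, and the GC box and the E-box matched in *Klf4* and *Gbx2*. *Tfcp2l1* had a TATA box 28 to 23 bases before its start, a motif present in 12.4% of the 32851 RefSeq promoter stretches of this length, and no match of the other 9. *Klf4* had 4 GC boxes, 2 of them overlapping by a base, of which at least 1 stood in 32.7% of all stretches, and 1 E-box. *Gbx2* had 1 GC box and 1 E-box, and 6.02% of all stretches held an E-box. The E-box was searched after the sequences had been seen. The STAT palindrome with a spacer of 3 (TTCNNNGAA, in 7.02% of all stretches) had no match in any of the 3. The palindrome with a spacer of 4 (in 5.85%) matched once, in *Gbx2*, 111 to 102 bases before the start, where it overlapped the 1 match of the Tfcp2l1 motif (in 24.9%). The other motifs without a match were the CACCC box (CCNCACCC), the Tcf site (ATCAAAG), a homeobox core (TAATTA) and the ETS site (CCGGAAG). The *Klf4* stretch was 74.0% G and C with 32 CpG, against 65.2% and 16 in *Tfcp2l1*, 61.6% and 18 in *Gbx2*, and medians of 52.4% and 6 over all stretches. These are letter matches in a short window and say nothing of binding there or elsewhere.

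*Tfcp2l1* (ENSMUSG00000026380) spans 57224 bases of chromosome 1 of GRCm38, from 118627945 to 118685168 on the plus strand, with up to 15 exons in 2 annotated transcripts of GENCODE M21. The 3 small annotated genes inside it have no value in the table. It had 30862 and 33414 normalized counts in the Go6983 samples, against 10262 and 9535 in the NT samples. Both Go6983 samples stood far above both NT samples, and the replicates of a group lay close together. For 99.7% of the table the groups did not overlap, in either direction. The means were 32138 ± 1805 in Go6983-treated cells and 9898 ± 514 in NT cells (SD, n = 2 each). The log2 fold change was 1.70 (standard error 0.098, 95% interval 1.46 to 1.94, limma adjusted p = 0.000375). In the 4 pairings of a Go6983 with an NT sample the difference ran from 1.59 to 1.81 on the log2 scale, so every pairing lay well past 2-fold.

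*Klf4* (ENSMUSG00000003032) is a compact gene of 5324 bases on chromosome 4 of GRCm38, from 55527143 to 55532466 on the minus strand, with 3 annotated transcripts. It had 13763 and 14563 normalized counts in the Go6983 samples, against 6796 and 7224 in the NT samples. The 2 groups did not overlap, as they did not for 99.7% of the table. The means were 14163 ± 566 in Go6983-treated cells and 7010 ± 303 in NT cells (SD, n = 2 each). The log2 fold change was 1.01 (standard error 0.092, 95% interval 0.79 to 1.24, limma adjusted p = 0.000446). *Klf4* thus sat just inside the 2-fold limit of the table, and only 24 of its 1099 higher genes had a smaller change. In the pairings of single samples its difference ran from 0.93 to 1.10 on the log2 scale, which spans the limit.

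*Gbx2* (ENSMUSG00000034486) spans 3224 bases of chromosome 1 of GRCm38, from 89927956 to 89931179 on the minus strand, with 2 exons. It had 265 and 325 normalized counts in the Go6983 samples, against 578 and 715 in the NT samples. It was by far the least abundant of the 3. Its highest Go6983 value was under its lowest NT value, in a table where the groups did not overlap for 99.7% of genes. The means were 295 ± 42.6 in Go6983-treated cells and 647 ± 97.2 in NT cells (SD, n = 2 each). The log2 fold change was -1.13 (standard error 0.17, 95% interval -1.55 to -0.70, limma adjusted p = 0.00201). Without Go6983 replicate 1 the log2 fold change was -0.98 and the limma adjusted p 0.0536. The annotated transcript D130058E05Rik runs over *Gbx2* on the opposite strand. Whether reads were counted by strand is not given in the sources used here, so reads of these genes cannot be told apart.

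**Figure D1:**
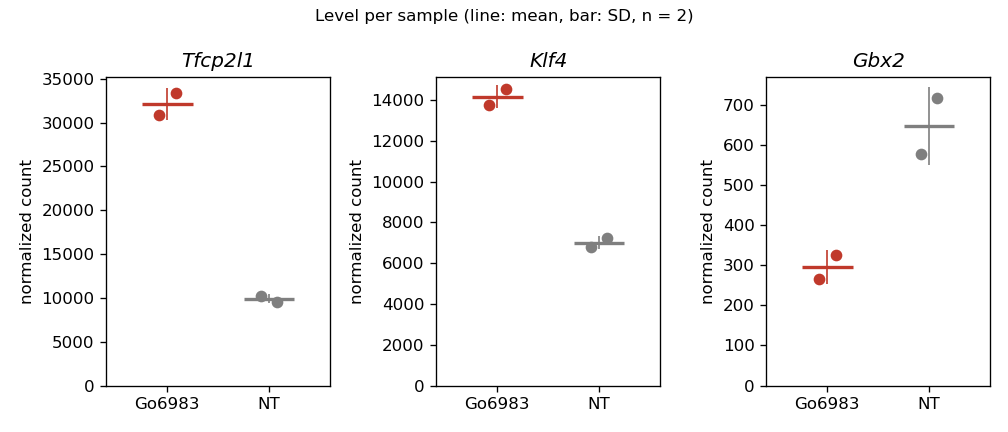
Normalized counts of *Tfcp2l1*, *Klf4* and *Gbx2* in the 2 Go6983 samples (red, left) and the 2 NT samples (grey, right), each point a sample, the line the mean and the bar the SD. Treated samples are the higher ones for *Tfcp2l1* and *Klf4* (for *Klf4* not under the median-ratio scaling) and the lower ones for *Gbx2*, on axes of their own that start at 0.

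The precision of the 3 genes followed their depth only in part. The values were whole multiples of 1 step per sample (100% within 0.05 of a whole number), so the reads could be recovered. *Tfcp2l1* rested on 33060 and 31217 reads in the Go6983 samples, against 10318 and 9331 in the NT samples, *Klf4* on 14743 and 13605 against 6833 and 7070, and *Gbx2* on 284 and 304 against 581 and 700. For *Gbx2* the exact Poisson 95% intervals, which cover counting error only, were 252 to 319 and 271 to 340 reads in the Go6983 samples and 535 to 630 and 649 to 754 in the NT samples. The NT replicates of *Gbx2* were thus apart by more than counting. The gap between replicates of *Gbx2* was 0.29 in the Go6983 and 0.31 in the NT samples on the log2 scale, where counting alone gives a standard deviation of 0.12 and 0.081. Of the 225 genes within 1 log2 unit of its mean level, itself included, 86.2% had a smaller gap between the Go6983 and 79.1% between the NT replicates. The gaps of *Tfcp2l1* (0.11 in the Go6983 and 0.11 in the NT samples) and of *Klf4* (0.081 and 0.088) were of the size usual for genes at their level, with medians of 0.10 to 0.11.

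Set among all genes of the table, *Tfcp2l1* combined a high level with a sizeable rise. Its log2 fold change was 346th of the 1099 genes with a higher mean in Go6983-treated cells. Of the 717 higher genes that averaged 50 or more normalized counts in Go6983-treated cells it was 125th, so most of the larger changes belonged to genes of lower counts. Among the 117 higher genes averaging 1000 or more normalized counts in Go6983-treated cells, a limit chosen with the values known, *Tfcp2l1* was 10th and *Klf4* 113th. *Gbx2* was 403rd of the 478 lower genes by size of change, so most lower genes changed more. Over the whole table the median log2 fold change was 1.42 for the higher and -1.49 for the lower genes.

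**Figure D2:**
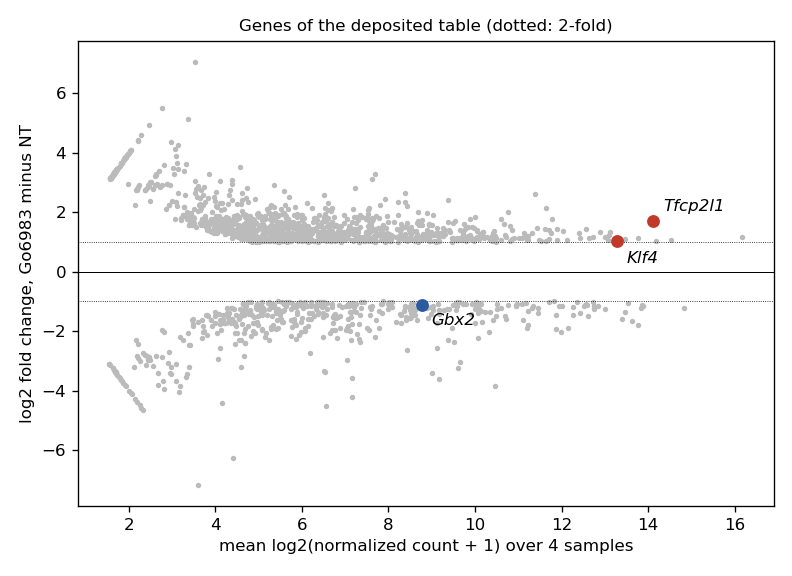
Log2 fold change (Go6983 minus NT, vertical axis) against the mean log2(normalized count + 1) over the 4 samples (horizontal axis) for the 1577 genes of the table, each grey point a gene, with *Tfcp2l1* and *Klf4* in red, *Gbx2* in blue and dotted lines at 2-fold. No gene lies between the dotted lines, *Klf4* lies on the upper one at 1.01, and *Tfcp2l1* stands above it at 1.70 at the right.

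Compared per length, *Klf4* was the most abundant of the 3 in both groups and *Gbx2* the least. Divided by the length of all annotated exons, *Klf4* had 4645 ± 185 normalized counts per kb in Go6983-treated cells and 2299 ± 99.4 in NT cells (SD, n = 2 each). *Tfcp2l1* had 3405 ± 191 normalized counts per kb in Go6983-treated cells and 1049 ± 54.5 in NT cells, and *Gbx2* 136 ± 19.6 and 297 ± 44.6. Neighbours in this order differed by more than their spread in each group. By this measure *Klf4* was 7th of 1572 listed genes in Go6983-treated cells and 22nd in NT cells, and *Tfcp2l1* was 10th and 50th. *Gbx2* was 253rd in Go6983-treated cells and 144th in NT cells. Which isoforms were expressed is unknown, and *Tfcp2l1* has an exon length of 9438 bases in all but a shortest annotated transcript of 478. With the longest annotated transcript the order was the same, and with the shortest *Tfcp2l1* came before *Klf4* in both groups, an alternative chosen after seeing the data.

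The 3 genes changed by unequal amounts, which the ratio of 2 genes within a sample shows whatever scaling the libraries are given. There were 2.24 and 2.29 *Tfcp2l1* counts per *Klf4* count in the Go6983 samples, against 1.51 and 1.32 in the NT samples. The log2 ratio of *Tfcp2l1* to *Klf4* was 1.18 ± 0.023 in Go6983-treated cells and 0.50 ± 0.14 in NT cells (SD, n = 2 each), a difference of 0.68 on the log2 scale. *Tfcp2l1* therefore rose more than *Klf4* did, by more than the spread between replicates. The ratio of *Tfcp2l1* to *Gbx2* was 116 and 102 in the Go6983 samples, against 17.7 and 13.3 in the NT samples. That of *Klf4* to *Gbx2* was 51.7 and 44.6 in the Go6983 samples, against 11.7 and 10.1 in the NT samples. None of the 3 ratios overlapped between the groups. For the ratios to *Gbx2* a rise was given in advance. The table holds only genes changed at least 2-fold, and *Gbx2* fell where the other genes rose. With 2 samples against 2 the exact permutation test (two-sided) gave p = 0.333 for each ratio, the smallest p this design allows. These differences thus have no formal support beyond the spread.

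**Figure D3:**
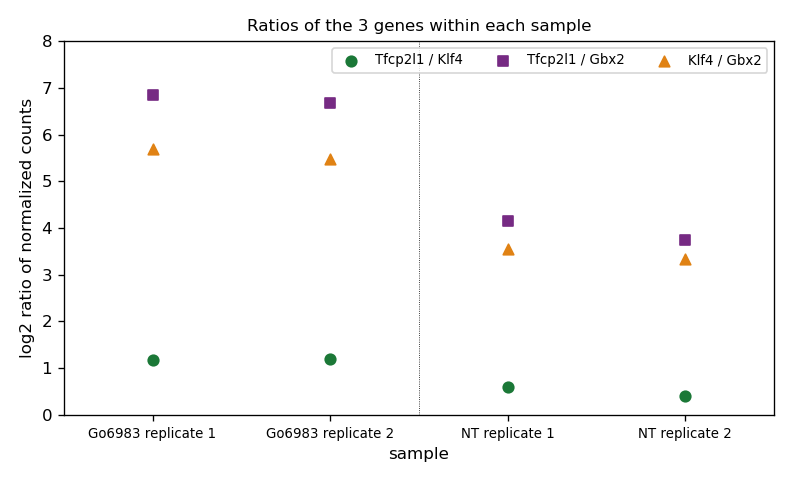
Log2 ratio of the normalized counts of *Tfcp2l1* to *Klf4* (green circles), *Tfcp2l1* to *Gbx2* (purple squares) and *Klf4* to *Gbx2* (orange triangles) in each of the 4 samples, the Go6983 samples left of the dotted line and the NT samples right of it. Each ratio is higher in both Go6983 samples than in both NT samples, by 0.68, 2.83 and 2.14 on average. For the ratios to *Gbx2* a rise was given in advance by the selection of the table.

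Little of the LIF pathway upstream of the 3 genes had a value in the table. Of 13 genes of the LIF receptor, the JAK kinases, the STAT factors and their adaptors, 1 had a value. This was *Stat5b*, a STAT factor of cytokine signaling, which rose with 1025 and 1032 normalized counts in the Go6983 samples, against 389 and 387 in the NT samples (log2 fold change 1.40, limma adjusted p = 0.000428). Under the median-ratio scaling given further on, its log2 fold change was 0.28 and its limma adjusted p 0.0849. *Stat3*, *Lifr* and *Il6st* have no value in the table and were not analysed here, nor were the 8 inhibitors of JAK/STAT signaling in the list, *Socs3* among them. Of 22 other targets of LIF/STAT3, 19 had no value and were not analysed here. Of the 3 with a value 1 rose and 2 fell, where 68.8% of the table was called higher and 29.7% lower. Their median log2 fold change, which is that of *Myc*, was -1.13, against 1.21 over all genes tested. *Fos*, an immediate early gene of the AP-1 family, had 323 and 363 normalized counts in the Go6983 samples, against 153 and 190 in the NT samples. Its log2 fold change of 1.00 had a limma adjusted p of 0.0031, and of 0.0522 and 0.068 without Go6983 replicate 1 and without Go6983 replicate 2. *Myc*, the basic helix-loop-helix factor that drives growth, fell and had 1346 and 1019 normalized counts in the Go6983 samples, against 2500 and 2632 in the NT samples (log2 fold change -1.13). *Sgk1*, a serine/threonine kinase gene, also fell (log2 fold change -1.14, limma adjusted p = 0.000514). Known LIF/STAT3 targets thus lay on both sides, with *Tfcp2l1*, *Klf4* and *Fos* higher and *Gbx2*, *Myc* and *Sgk1* lower, although *Klf4* and *Fos* had values just below 0 under the median-ratio scaling given further on.

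Of the relatives of the 3 genes, few were listed. Of 26 other members of the Klf and Sp family, *Klf12*, a repressor, and *Sp6*, a factor of skin and tooth epithelium, had a value. *Klf12* had 1622 and 1669 normalized counts in the Go6983 samples, against 862 and 641 in the NT samples (log2 fold change 1.15, limma adjusted p = 0.00143, and 0.0624 and 0.0682 without Go6983 replicate 1 and without Go6983 replicate 2). *Klf12* stood at 0.024 on the log2 scale under the median-ratio scaling, with a limma adjusted p of 0.943. *Sp6* had 235 and 224 normalized counts in the Go6983 samples, against 726 and 431 in the NT samples, which lay far apart (log2 fold change -1.28, limma adjusted p = 0.00537, and 0.104 and 0.116 without Go6983 replicate 1 and without Go6983 replicate 2). *Klf2* and *Klf5*, the Krüppel-like factors that share functions with Klf4 in mESCs, have no value in the table and were not analysed here. Of the 5 relatives of *Tfcp2l1* in the CP2 and grainyhead family, 1 had a value. It was *Grhl2*, a grainyhead factor of epithelial cells, which fell with 1398 and 1156 normalized counts in the Go6983 samples, against 4854 and 4091 in the NT samples (log2 fold change -1.81, limma adjusted p = 0.000428). *Gbx1*, the one close relative of *Gbx2*, was not analysed here.

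Of 20 other genes of the naive network, 4 had a value and all 4 rose, with a median log2 fold change of 1.13, in a table of which 68.8% was called higher and whose median was 1.21. Under the median-ratio scaling none of the 4 passed, and *Nanog* and *Nr5a2* had values just below 0. *Nanog*, a homeobox factor, had 33595 and 34977 normalized counts in the Go6983 samples, against 15992 and 16902 in the NT samples (log2 fold change 1.06). The T-box gene *Tbx3*, the nuclear receptor gene *Nr5a2* and the PR domain gene *Prdm14* had log2 fold changes of 1.13, 1.12 and 1.19. *Klf4* at 1.01 was close to these 4, while *Tfcp2l1* at 1.70 was above each of them and *Gbx2* went the other way. The study had picked *Tfcp2l1*, *Gbx2*, these 4, *Myc* and *Pou3f1* as candidates on the same samples, so their direction here is no independent evidence. The paper reports that quantitative real-time PCR of these candidates, on biological replicates with or without Go6983, bore out the sequencing. For *Prdm14* it also reports a rise in protein on Western blots, and for *Pou3f1* lower protein by mass spectrometry. It further reports low *Tfcp2l1* and *Nanog* expression in Go6983-treated mESCs after knockdown of *Prdm14*. *Klf4* was not among the candidates, and the PCR values were not used here. In a list of 8 genes headed core pluripotency, *Dnmt3l* and *Utf1*, a chromatin protein gene, had a value and fell, with log2 fold changes of -1.22 and -1.15. *Dnmt3l* is a cofactor of DNA methyltransferases and belongs with *Dnmt3a* and *Dnmt3b* rather than with core pluripotency factors. Of 19 genes of the formative and primed epiblast 10 had a value. Of these 9 fell and 1, *Nkx1-2*, rose (median log2 fold change -1.86), where 29.7% of the table was called lower and 68.8% higher. Their falls ran from -1.23 for *Foxd3*, a forkhead gene, to -3.85 for *Pou3f1*, a POU factor gene, each larger than that of *Gbx2*. The call of *Nkx1-2* needed both Go6983 samples, with a limma adjusted p of 0.105 without the first replicate and 0.091 without the second, and was also lost under the median-ratio scaling (log2 fold change 0.50, limma adjusted p = 0.299).

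ERK and Wnt signaling also bear on genes of the naive network in mESCs. Of 21 feedback and early response genes of the ERK pathway, 7 had a value. Of these 6 fell and 1, *Fos*, rose (median log2 fold change -1.13), beside the same 29.7% lower and 68.8% higher and a median of 1.21 over the table. *Dusp4*, a phosphatase of MAP kinases, and *Etv4*, an ETS factor gene, fell most, with log2 fold changes of -1.49 and -1.39. The smallest fall was that of *Dusp6*, a phosphatase of ERK, at -1.02. Of 16 Wnt targets 4 had a value. *Cdx1*, a caudal homeobox gene, and *Rnf43*, a ubiquitin ligase gene, rose, and *Lef1* and *Dkk1* fell. The lists share genes, as *Lef1* is also counted in the formative and primed list, and *Myc* and *Fos* in both the LIF/STAT3 and ERK lists. *Dkk1*, a secreted Wnt inhibitor, lost its call when any 1 of the 4 samples was left out (limma adjusted p from 0.0536 to 0.0825), as did *Rnf43* without Go6983 replicate 1 (0.0518). Of 12 PKC genes 2 had a value. *Prkch* fell (log2 fold change -1.33), and *Prkcq*, at 27.1 ± 2.61 normalized counts in Go6983-treated cells and 8.54 ± 3.40 in NT cells (SD, n = 2 each), rose. The call of *Prkcq* was lost without either Go6983 sample or without NT replicate 2 (limma adjusted p from 0.059 to 0.104), and under the median-ratio scaling (log2 fold change 0.55, limma adjusted p = 0.399).

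**Figure D4:**
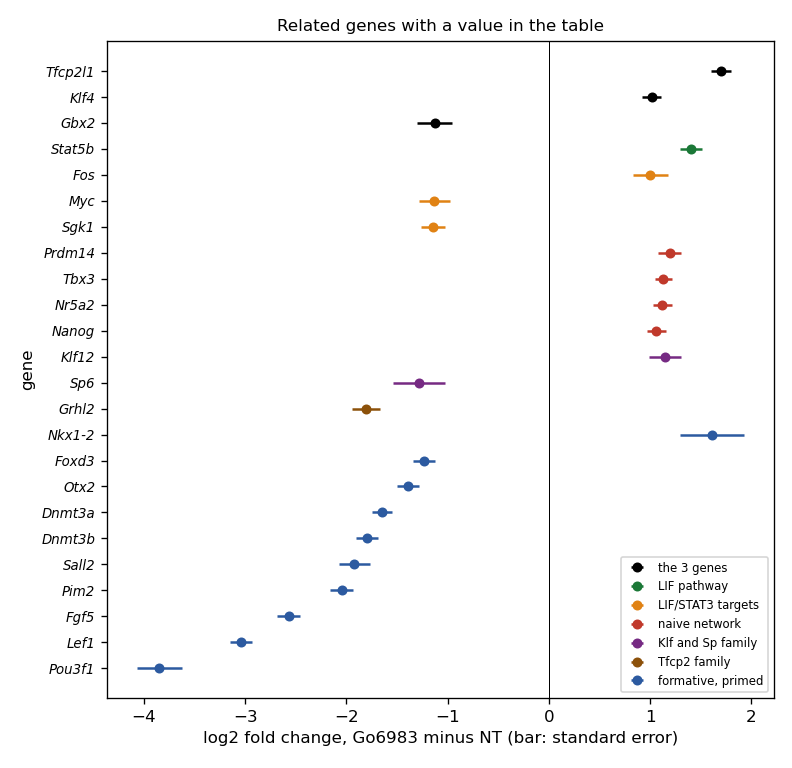
Log2 fold change (Go6983 minus NT, horizontal axis) with its limma standard error for *Tfcp2l1*, *Klf4* and *Gbx2* (black) and for genes with a value in the lists of the LIF pathway (green), LIF/STAT3 targets (orange), the naive network (red), the Klf and Sp family (purple), the Tfcp2 family (brown) and the formative and primed epiblast (blue). *Klf4* at 1.01 lies beside the 4 naive genes, from 1.06 to 1.19 (as deposited, with *Klf4*, *Fos*, *Nanog* and *Nr5a2* below 0 under the median-ratio scaling), and *Gbx2* at -1.13 beside *Myc* and *Sgk1*.

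Markers of other cells were listed in part, and in such bulk samples fewer cells of a type and less RNA per cell cannot be told apart. Of 7 mESC markers *Nanog* and *Utf1* had a value and went opposite ways (log2 fold changes of 1.06 and -1.15), and summed to 44352 and 44489 normalized counts in the Go6983 samples, against 38456 and 39185 in the NT samples, while *Pou5f1* and *Sox2* were not analysed here. None of 7 primitive endoderm markers was listed. Of 10 trophoblast markers 7 had no value. The other 3, *Tead4*, *Tfap2c* and *Esx1*, rose, in a table of which 68.8% was called higher and 29.7% lower. These 3 summed to 4767 and 5161 normalized counts in the Go6983 samples, against 1962 and 1859 in the NT samples. Of 7 neural markers 3 had a value. *Neurod1* and *Pax6* fell and *Lhx2* rose, and the 3 summed to 525 and 427 in the Go6983 samples, against 1568 and 1365 in the NT samples. Of 7 mesoderm markers *Kdr* was listed (74.7 and 35.3 in the Go6983 samples, against 113 and 121 in the NT samples), and of 7 fibroblast markers *Col1a2* (78.4 and 82.4 against 31.8 and 40.9). No listed marker was at 0. The 3 trophoblast markers, *Lhx2* and *Col1a2* moved with *Tfcp2l1* and *Klf4*, and *Neurod1*, *Pax6* and *Kdr* moved with *Gbx2*. Their part in these changes was not tested.

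The genes whose values were most like those of each of the 3 over the 4 samples were taken by the smallest distance between log2 values centred on the mean of each gene, among 1043 genes that averaged 50 or more normalized counts in whichever group was higher. For *Tfcp2l1* they were *Bcl6*, a transcriptional repressor, *Slc6a7*, a proline transporter, *C330007P06Rik*, *Slc15a1*, a peptide transporter, and *Aph1c*, a subunit of γ-secretase, at distances of 0.067 to 0.13 on the log2 scale. *Bcl6*, the nearest, had log2 values of 9.20 and 9.28 in the Go6983 samples, against 7.66 and 7.54 in the NT samples, where *Tfcp2l1* had 14.91 and 15.03 against 13.33 and 13.22. For *Klf4* they were *Ccbe1*, *Trf*, which encodes transferrin, *Fam114a1*, *Tcp11* and *Nanog*, at 0.037 to 0.049. *Nanog* had log2 values of 15.04 and 15.09 in the Go6983 samples, against 13.97 and 14.05 in the NT samples, where *Klf4* had 13.75 and 13.83 against 12.73 and 12.82. For *Gbx2* they were the processed pseudogenes *Gm35595* and *Gm16411*, *P3h2*, a prolyl hydroxylase, *Fgfbp1*, a binding protein of fibroblast growth factors, and *Car3*, a carbonic anhydrase, at 0.061 to 0.15. With 4 samples in 2 groups this likeness is mostly that of the size of the change, and *Gbx2* had less close neighbours than *Klf4*.

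Among the fits on all 4 samples, only the scaling of the libraries moved the size of the 3 changes much. Most of the other settings could hardly change it by construction. Under a median-ratio scaling of the libraries, which by construction centres a list of selected genes, fold changes shifted by -1.10 in the median on the log2 scale. *Tfcp2l1* then had a log2 fold change of 0.58, *Klf4* of -0.11 and *Gbx2* of -2.25. Relative to this shift *Tfcp2l1* was higher, *Klf4* was with the middle of the table and *Gbx2* was lower.

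**Figure D5:**
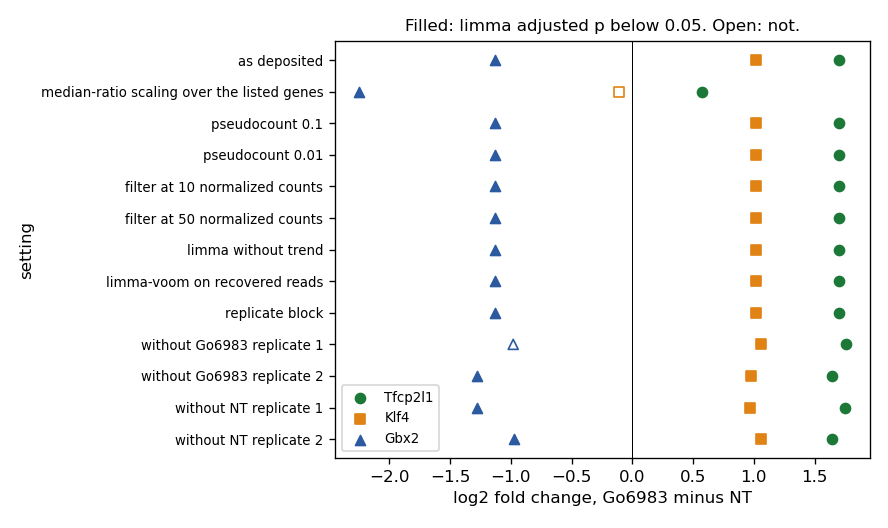
Log2 fold change (Go6983 minus NT, horizontal axis) of *Tfcp2l1* (green circles), *Klf4* (orange squares) and *Gbx2* (blue triangles) under each setting, filled where the limma adjusted p was below 0.05. *Klf4* is open at -0.11 under the median-ratio scaling and *Gbx2* at -0.98 without Go6983 replicate 1, and all other points are filled.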

How the data were processed

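Total RNA of 2 Go6983 and 2 NT samples of 46C mESCs was sequenced. The authors deposited log2 values per gene and sample, which are log2(normalized count + 1), beside their own group means, fold changes, p-values and adjusted p-values, which were not used. Bowtie 0.12.2 and the build mm9 stand in the processing notes of the submitters, without a role. The read counter, its annotation and strand setting, and the normalization tool are not stated in the sources used here. The step of each sample gave size factors of 1.071 and 0.934 for the Go6983 and 1.006 and 0.979 for the NT samples, with between 859777 and 1054236 reads in listed genes. The total depth is unknown. The chi-square per gene between replicates was 7.49 for the Go6983 and 11.0 for the NT samples, more than counting error gives.

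GENCODE M21 (GRCm38) gave symbols and coordinates for 1572 of 1577 gene IDs, and RefSeq (GRCm38.p6) the promoter sequences, matched by symbol for all 3 genes. Fold changes were fitted on the deposited log2 values with limma 3.58.1 in R 4.3.3 (lmFit, eBayes with trend), without filter or replicate block, with Benjamini-Hochberg adjustment over all 1577 genes. limma borrowed variance from a table selected on these samples, with 3.635 prior against 2 residual degrees of freedom, so its p-values may be too small. Single values were compared by exact permutation (scipy 1.17.1). The limma steps were run on simulated counts in which most genes were unchanged. That setting differs from this selected table, so the run does not bear on the p-values given here. The genes, the 18 lists and the tests were chosen with earlier results of these data known. Named genes were the 3 genes, listed members of the related lists, some genes of the other lists, and the 5 most alike of each of the 3. Those of the other lists were in part the ends of a range or genes of the opposite direction. They were thus not always the genes with the smallest p. Alternatives were another scaling, pseudocounts of 0.1 and 0.01, filters at 10 and 50 normalized counts, limma without trend, limma-voom on the recovered reads, the replicate number as a block, and each replicate left out. Figures were drawn with matplotlib 3.10.9.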

Additional observations from a re-analysis of the deposited data

How the results depend on the processing

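Under 7 settings other than the scaling (pseudocounts, filters, limma without trend, limma-voom and the replicate block) the log2 fold changes ran from 1.697 to 1.699 for *Tfcp2l1*, 1.014 to 1.015 for *Klf4* and -1.134 to -1.127 for *Gbx2*, with limma adjusted p-values of at most 0.0110. The filters, the trend setting and the block cannot change a fold change in this balanced design, and bear only on the p-values. Pseudocounts can hardly change it at these counts, so the narrow ranges were largely given in advance. The numbers 1 and 2 were shared by both groups but pair nothing in the labels. The deviations of same-numbered samples from their group means correlated at 0.032 across genes, and the fit with the replicate block gave 1070 higher and 466 lower genes, against 1085 and 469 without it. With each replicate left out in turn the log2 fold change ran from 1.64 to 1.76 for *Tfcp2l1*, 0.97 to 1.06 for *Klf4* and -1.28 to -0.97 for *Gbx2*, whose limma adjusted p reached 0.0536, and the ratios from 0.59 to 0.78 for *Tfcp2l1* to *Klf4*, 2.62 to 3.03 for *Tfcp2l1* to *Gbx2* and 2.03 to 2.25 for *Klf4* to *Gbx2*. Such fits with 1 sample in a group assume that it varies like the other group. They called 431 to 858 higher and 260 to 315 lower genes. The list counts then ran from 0 to 1 higher for the LIF/STAT3 targets, the formative and primed epiblast, the ERK genes and the Klf and Sp family, and from 0 to 1 lower for the last. Under the median-ratio scaling, which centres the selected list by construction, the log2 fold change of *Klf4* was -0.108 (limma adjusted p = 0.437), of *Fos* -0.118, of *Nanog* -0.0628 and of *Nr5a2* -0.00306, with 176 genes higher and 476 lower and 0 higher in each of the LIF/STAT3, naive, formative, ERK and Klf and Sp lists. A filter at 50 normalized counts, which tests fewer genes, left 714 higher. At the depth of *Gbx2* the counting error was a standard deviation of up to 0.12 on the log2 scale.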
